A study of Mus musculus with 33 samples.

Results

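Hoxb1 to Hoxb9 lie side by side in the Hoxb cluster on mouse chromosome 11 and encode homeodomain transcription factors. They were followed as P19 cells differentiated. This mouse line was derived from an embryonal carcinoma and can be steered towards several lineages. Members were taken by name and numbered 1 to 9 from the 3′ end of the cluster, and all 9 were found among the 14717 genes of the RNA table. Hoxb13, the next coding gene beyond Hoxb9, was not in the RNA table and is not a member here. Their Ensembl identifiers in the table, from Hoxb1 to Hoxb9, are ENSMUSG00000018973, ENSMUSG00000075588, ENSMUSG00000048763, ENSMUSG00000038692, ENSMUSG00000038700, ENSMUSG00000000690, ENSMUSG00000038721, ENSMUSG00000056648 and ENSMUSG00000020875.

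The 15 RNA libraries form 5 groups of 3. D0 is undifferentiated P19 cells, which received neither agent. D3RA and D6RA were differentiated with 1 µM all-trans retinoic acid, and D3DMSO and D6DMSO with 1% DMSO, and RNA was sampled at day 3 and day 6. In both treatments the cells spent the first 2 days as embryoid bodies in petri dishes and were then moved to flasks with maintenance medium, which was made with charcoal-stripped serum for all groups. The DMSO groups are therefore a second differentiation and not an untreated control. All libraries come from the same tumour-derived line, and the 18 samples of H3K9me2 and H3 chromatin are not analysed here. The replicates are described as biological, but no source used here says that they were separate cultures, so p-values measure the scatter of these samples only, which may be technical.

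Hox genes give cells along the head-to-tail axis their regional identity. Within a cluster their order on the chromosome follows the order in which they come on in time and in space: genes at the 3′ end act early and in the hindbrain, genes at the 5′ end later and in the trunk. Retinoic acid, bound by receptors that sit on DNA as dimers with RXR, switches on 3′ Hox genes directly, and the caudal factors Cdx1, Cdx2 and Cdx4 act on central and 5′ members in the tail end of the embryo. Hoxb1 specifies a single hindbrain segment, rhombomere 4, where its protein maintains its own gene together with Pbx cofactors. It is also expressed early in the primitive streak and the mesoderm that leaves it.

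The stretch of 250 bases just upstream of the annotated start is shown for Hoxb1, Hoxb4 and Hoxb8, the members that RefSeq's promoter table held (3 of 9), to put sequence beside genes that differ in their response to retinoic acid. Sequences are from RefSeq on GRCm38.p6, plus strand, in lower case, with capitals marking matches to the motifs searched. The Hoxb1 stretch is chr11:96365508-96365757, the Hoxb4 stretch is chr11:96318017-96318266 and the Hoxb8 stretch is chr11:96281655-96281904. These coordinates belong to that build and not to mm9, the build listed for the study.
Hoxb1: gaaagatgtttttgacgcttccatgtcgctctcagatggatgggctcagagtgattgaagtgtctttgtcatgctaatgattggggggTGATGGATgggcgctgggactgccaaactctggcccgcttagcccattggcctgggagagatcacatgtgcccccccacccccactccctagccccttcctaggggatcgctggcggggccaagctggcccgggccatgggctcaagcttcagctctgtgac
Hoxb4: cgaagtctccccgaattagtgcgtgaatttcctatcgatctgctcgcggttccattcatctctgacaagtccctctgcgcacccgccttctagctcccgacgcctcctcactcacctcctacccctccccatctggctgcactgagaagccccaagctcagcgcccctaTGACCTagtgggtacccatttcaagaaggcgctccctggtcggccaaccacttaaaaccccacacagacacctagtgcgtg
Hoxb8: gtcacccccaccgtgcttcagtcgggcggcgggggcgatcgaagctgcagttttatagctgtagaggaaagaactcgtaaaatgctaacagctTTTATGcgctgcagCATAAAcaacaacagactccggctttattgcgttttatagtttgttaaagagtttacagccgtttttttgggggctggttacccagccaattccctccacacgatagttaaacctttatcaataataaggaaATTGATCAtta

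Both strands were searched for 3 motifs: AGGTCA, the unit that retinoic acid receptors read as a repeat; TTTATG, a core bound by caudal factors; and TGATNNAT, a site bound jointly by Pbx and Hox proteins. Positions count back from the base before the annotated start. In Hoxb1, TGATGGAT stood 162 to 155 bases upstream and matched the Pbx-Hox motif. In Hoxb4, TGACCT at 81 to 76 bases upstream is the reverse complement of AGGTCA. Hoxb8 held TTTATG at 157 to 152, its reverse complement CATAAA at 143 to 138, and ATTGATCA, a Pbx-Hox match on the minus strand, at 11 to 4. No matches overlapped. Matches to such short motifs are common: AGGTCA was found in 14% of the 32851 RefSeq promoter windows of 250 bases, TTTATG in 10.8% and TGATNNAT in 7.68%. They are descriptions of these letters, and binding was not measured.

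Total counts per library were 3.55 to 9.88 M at D0 and D3 and 38.2 to 49.6 M at D6. The 11 mitochondrial genes had 0 counts in every D0 and D3 library and took 41.6 to 55.8% of the counts at D6, a difference between the libraries that cannot be told apart from time. Levels are given in CPM (read counts scaled to a common library size) on the library scale of the deposited table, as mean ± SD of 3 libraries. A single count was worth 0.0911 to 0.457 CPM in D0 and D3 libraries and 0.0313 to 0.0439 CPM at D6. Differences were estimated with limma as log2 fold change ± SE, with p-values adjusted over all 14717 genes by the Benjamini-Hochberg method, and a gene is called at an adjusted p under 0.05. CPM holds no correction for gene length, so levels are compared between groups for the same gene, and between genes only through ratios that are set against the same ratio in another group. In bulk RNA, fewer expressing cells and less RNA per cell cannot be told apart. Overlap of libraries is given as a description of single genes, since the share of all genes without overlap was not computed.

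Undifferentiated cells had almost no Hoxb RNA. The 3 D0 libraries held 6 counts of the 9 genes between them: 2 of Hoxb3, 1 of Hoxb4, 1 of Hoxb8 and 2 of Hoxb9. Hoxb1, Hoxb2, Hoxb5, Hoxb6 and Hoxb7 were at 0 counts in all 3, which allows up to 0.11 CPM each (3 counts over the group, counting error only). The D0 libraries therefore give a floor against which every differentiated group is read.

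**Figure D1:**
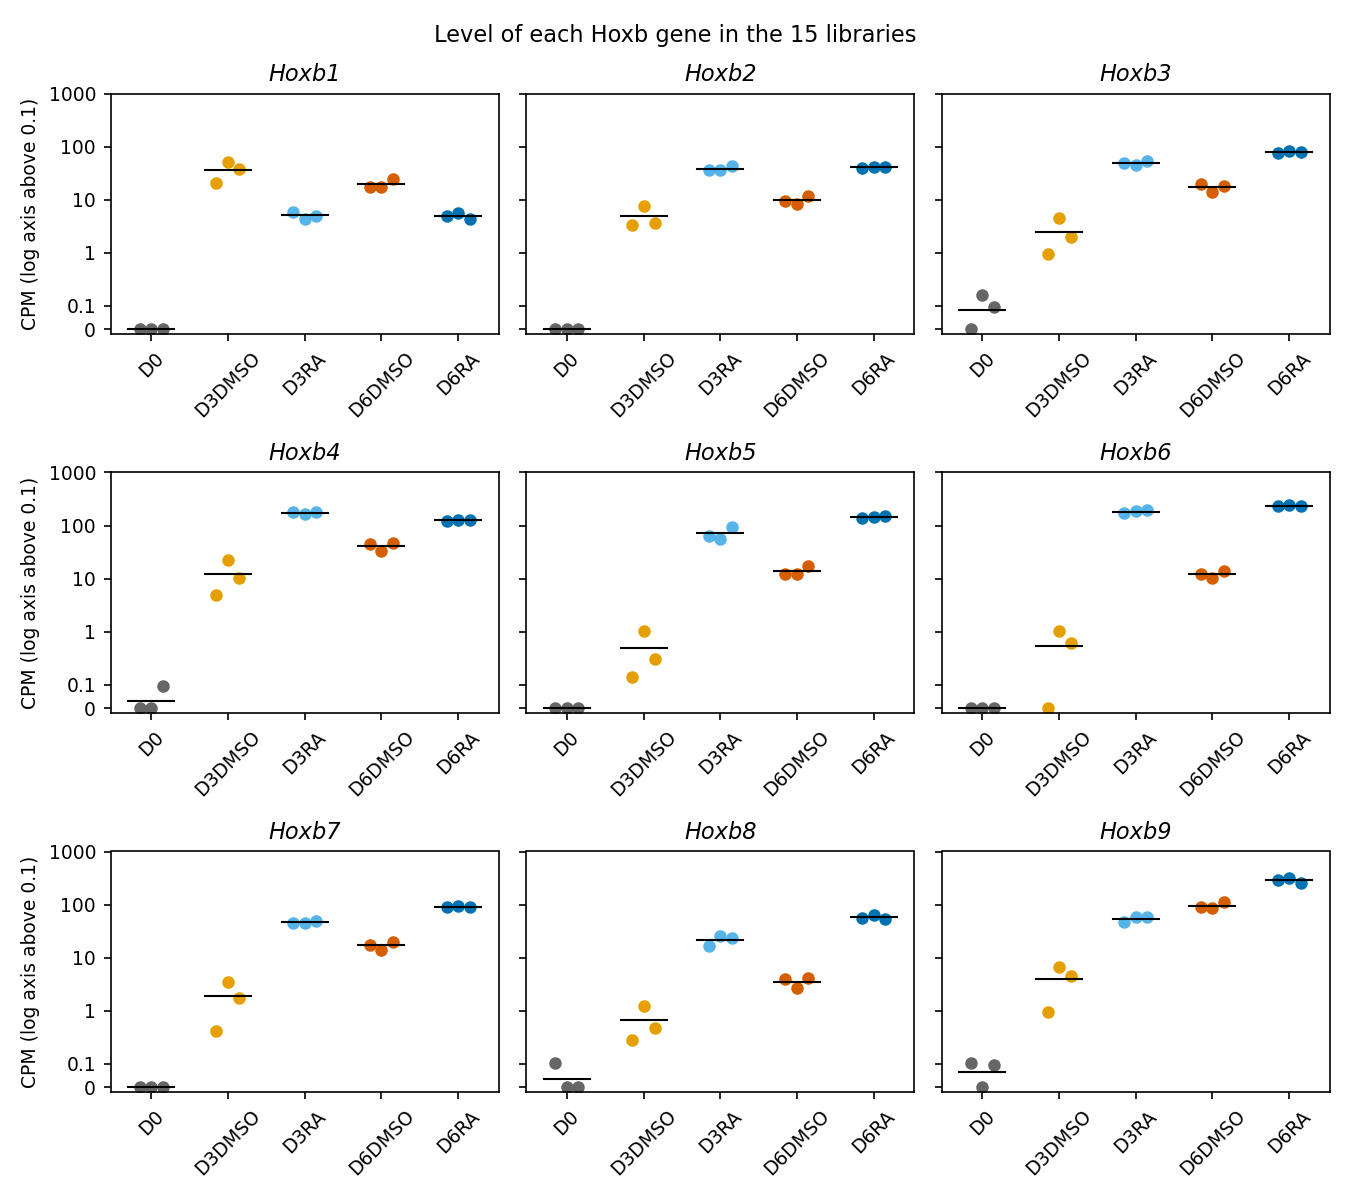
Level of each Hoxb gene in CPM (vertical axis, logarithmic above 0.1 and linear below) in the 5 groups (horizontal axis); points are the 3 libraries in replicate order and black lines their mean. Hoxb1 is the gene whose DMSO libraries (17.0 to 50.9 CPM) all lie above the retinoic acid libraries (4.23 to 5.83 CPM), while for Hoxb2 to Hoxb9 the retinoic acid libraries lie above the DMSO libraries of the same day.

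The levels fell into 4 orders over the groups. Hoxb1 was highest in D3DMSO (36.4 ± 15 CPM), followed by D6DMSO (19.5 ± 4.1), D3RA (5.03 ± 0.8), D6RA (4.96 ± 0.57) and D0. The libraries of D3DMSO and D6DMSO overlapped for this gene, and so did those of D3RA and D6RA. Hoxb2, Hoxb3, Hoxb5, Hoxb6, Hoxb7 and Hoxb8 shared another order, with D6RA first, then D3RA, D6DMSO, D3DMSO and D0; D6RA and D3RA overlapped for Hoxb2. Hoxb4 stood out by being highest in D3RA (176 ± 7.9 CPM), ahead of D6RA (127 ± 3.1), D6DMSO (41.8 ± 7.7) and D3DMSO (12.3 ± 8.8). Hoxb9, the member nearest the 5′ end, was highest in D6RA (288 ± 28 CPM). It was the only gene of Hoxb2 to Hoxb9 with D6DMSO (95.4 ± 14) above D3RA (53.9 ± 6.4).

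Differentiation in DMSO, compared with D0, asks what the cluster does on the mesodermal route of this line. All 9 Hoxb genes rose by day 3, where 28.2% of all genes were called higher and 27.8% lower. Hoxb1 went from 0 counts in each D0 library to 20.9, 50.9 and 37.3 CPM (151, 248 and 241 counts), at least 306-fold higher. Every D3DMSO library stood far above the D0 floor for this gene.

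Hoxb2, a hindbrain gene next to Hoxb1, reached 3.31, 7.59 and 3.56 CPM, at least 40-fold higher than D0. Hoxb4, a gene of the posterior hindbrain and spinal cord, reached 4.83, 22.0 and 10.2 CPM from 1 count in D0, a ratio of summed counts of 299 with a 95% counting interval of 53.1 to 11862. The central genes stayed low. Hoxb5 had 1, 5 and 2 counts and Hoxb6 had 0, 5 and 4 counts in the 3 D3DMSO libraries, at least 3-fold and at least 4-fold above D0. For Hoxb6 the groups overlapped, since replicate 1 was at 0 like D0.

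Hoxb7 was at 0.414 to 3.49 CPM (at least 14-fold higher), Hoxb8 at 0.276 to 1.23 CPM (ratio 15.8, interval 2.3 to 680) and Hoxb9 at 0.967 to 6.57 CPM (ratio 48.9, interval 13.0 to 412). Intervals and bounds cover counting error only. The median over the 9 genes was 30.2-fold with the 5 genes at 0 counts set at their bound, or 4.92 on the log2 scale. The median of the log2 fold changes fitted by limma was 4.66 over the 9 genes and 0.02 over all genes. Adjusted p-values from limma ran from 6.05e-13 for Hoxb1 to 0.0018 for Hoxb6.

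The 3 D3DMSO libraries differed among themselves. Replicate 1 was the lowest for all 9 Hoxb genes and replicate 2 the highest for all 9, and the summed level was 31.8, 98.3 and 60.7 CPM. In the same order, 4 abundant transcripts (Lars2, Gm15564 and 2 genes without a symbol) took 3.09, 32.8 and 24.0% of the non-mitochondrial counts, and the part of this in the spread was not tested. All 9 genes were called with any of the 3 libraries left out. The fitted log2 fold change of Hoxb6 moved from 2.72 to 3.95 without replicate 1 and to 1.93 without replicate 2, and that of Hoxb9 from 4.72 to 5.53 without replicate 1. That of Hoxb7 moved from 4.66 to 5.46 without replicate 1 and 4.01 without replicate 2, that of Hoxb5 from 2.96 to 2.30 without replicate 2, and that of Hoxb3 from 4.17 to 3.56 without D0 replicate 1.

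Retinoic acid gave another profile at day 3. Against D0 all 9 genes rose, where 35.0% of all genes were called higher and 33.9% lower. Hoxb6 rose at least 1579-fold, from 0 counts to 172, 186 and 195 CPM, and Hoxb4 went from 1 count to 180, 167 and 182 CPM, a ratio of 4744 (interval 851 to 187441). Hoxb1 rose at least 48-fold, to 5.83, 4.23 and 5.02 CPM. None of the 9 genes overlapped with D0, a description without a share over all genes. Adjusted p-values from limma were at most 1.05e-10. Without D0 replicate 1 the fitted log2 fold change of Hoxb3 moved from 8.69 to 8.08. In this comparison the median fold was 598 with genes at 0 counts at their bound (9.22 on the log2 scale). The median of the log2 fold changes fitted by limma was 9.38 over the 9 genes and 0.01 over all genes.

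Setting D3RA against D3DMSO asks how the agents differ. Hoxb1 fell and Hoxb2 to Hoxb9 rose: 8 members were called higher and 1 lower, where 30.7% of all genes were called higher and 31.4% lower. None of the members' libraries overlapped, but the share of all genes without overlap was not computed. Hoxb1 was 7.23-fold lower with retinoic acid by mean CPM (log2 fold change -2.73 ± 0.29, adjusted p = 4.68e-07 from limma). The gene that opens the cluster thus had its lowest differentiated levels in the groups where Hoxb2 to Hoxb8 had their highest.

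Hoxb2, which adjoins it, was 7.98-fold higher (35.5 to 43.8 CPM against 3.31 to 7.59; log2 fold change 3.08 ± 0.27). Hoxb3, a gene of the posterior hindbrain, rose from 0.967, 4.52 and 2.01 CPM to 50, 44.9 and 53.0 CPM (4.52 ± 0.47). Hoxb4 rose by 4.09 ± 0.39 on the log2 scale.

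The largest differences were at Hoxb5 and Hoxb6, in the middle of the cluster. Hoxb5, which acts in the trunk and in enteric neural crest, went from 0.138, 1.03 and 0.31 CPM to 64.9, 56.4 and 94.1 CPM. This is a ratio of summed counts of 156 (95% counting interval 78.9 to 362), and the fitted log2 fold change was 7.29 ± 0.42 (adjusted p = 2.1e-10 from limma). Hoxb6, its neighbour, had a ratio of 366 (interval 193 to 802) and a log2 fold change of 8.92 ± 0.64. Hoxb7 rose by 5.01 ± 0.46, Hoxb8 by 5.11 ± 0.44 and Hoxb9 by 4.09 ± 0.45 on the log2 scale. The difference was thus smaller on both sides of Hoxb5 and Hoxb6. Spearman's rho of log2 fold change with position was 0.54 over the 9 genes, a description of genes that share libraries and depth. The median over the members was 4.52, against -0.01 over all genes.

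The sizes in the 5′ genes depend on the sparse D3DMSO libraries, the calls do not. Without D3DMSO replicate 1 the log2 fold changes were 7.70 for Hoxb6, 4.21 for Hoxb7 and 3.28 for Hoxb9. Without D3DMSO replicate 2 they were 7.95 for Hoxb5, 9.71 for Hoxb6 and 5.66 for Hoxb7. Within D3RA the same 4 transcripts took 1.97, 39.5 and 45.7% of the non-mitochondrial counts, while the summed Hoxb level was 618, 623 and 703 CPM.

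**Figure D2:**
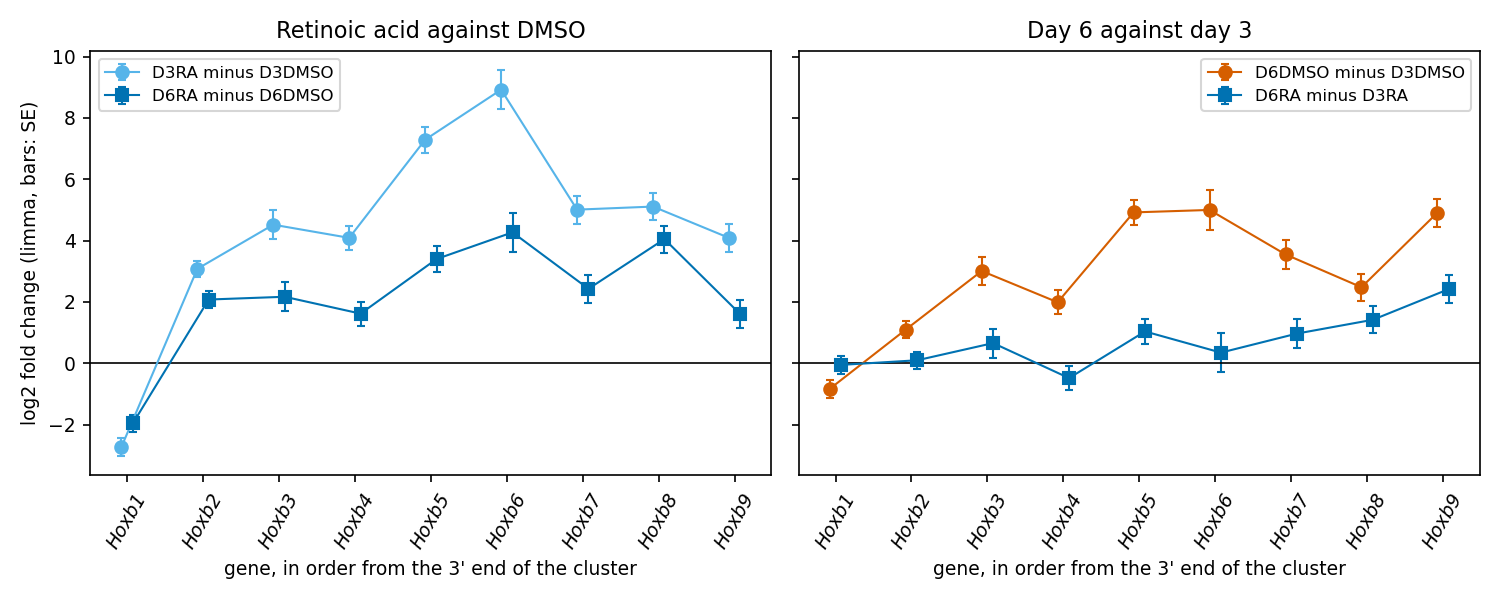
Log2 fold change from limma (vertical axis, bars are SE) of each gene in cluster order (horizontal axis). Left, retinoic acid minus DMSO at day 3 and day 6, with Hoxb1 below 0 on both days (-2.73 and -1.96) and the peak at Hoxb6 (8.92 and 4.27); right, day 6 minus day 3 in each treatment, where Hoxb9 has the largest rise with retinoic acid (2.42).

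At day 6 the same split held between the treatments. Hoxb1 was lower in D6RA than in D6DMSO, at 4.97, 5.53 and 4.38 CPM against 17.3, 17.0 and 24.2 CPM (log2 fold change -1.96 ± 0.29, adjusted p = 1.54e-05 from limma). Hoxb2 to Hoxb9 were higher in D6RA. No member's libraries overlapped, again without a share over all genes to set beside this. The count of 8 higher and 1 lower stands beside 32.6% of all genes called higher and 33.1% lower. The median log2 fold change was 2.17 over the 9 genes and -0.02 over all genes.

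Hoxb6 again differed most, with 230, 243 and 230 CPM in D6RA against 12.5, 10.3 and 13.8 CPM in D6DMSO, a mean difference of 19.2-fold. Hoxb8, a gene of the lower trunk and of myeloid progenitors, was next, at 56.8, 65.0 and 53.1 CPM against 3.9, 2.69 and 4.07 CPM (16.4-fold). Hoxb5 was 10.5-fold higher, Hoxb7 5.34-fold, Hoxb3 4.46-fold and Hoxb2 4.18-fold. The smallest rises were at Hoxb4 (3.03-fold) and Hoxb9 (3.02-fold). Hoxb9, a thoracic-level gene, was abundant in both treatments at this day, with 292, 314 and 259 CPM in D6RA and 89.4, 85.2 and 112 CPM in D6DMSO.

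The difference between the treatments was smaller at day 6 than at day 3 for most of the cluster. The test of this, the treatment difference at D6 less that at D3, called 7 members lower (Hoxb2 to Hoxb7 and Hoxb9) and none higher, where 23.1% of all genes were called lower and 25.4% higher. Hoxb6 had the largest drop, -4.66 ± 0.91, followed by Hoxb5 at -3.88 ± 0.59. Hoxb1 (0.78 ± 0.41, adjusted p = 0.132) and Hoxb8 (-1.06 ± 0.62, adjusted p = 0.168, both from limma) did not pass. The median was -2.47 over the 9 genes and 0.04 over all genes.

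The sizes of these drops depend on the D3DMSO libraries and on the processing. On the scale of log2 of CPM plus 1 the value was -2.31 for Hoxb5, -2.80 for Hoxb6 and -0.10 for Hoxb8. Without D3DMSO replicate 1 the value was -3.43 for Hoxb6, -1.78 for Hoxb7 and -1.68 for Hoxb9, and without replicate 2 it was -4.55 for Hoxb5, -5.44 for Hoxb6 and -3.23 for Hoxb7. The call of Hoxb2 (-1.0 ± 0.39, adjusted p = 0.043) was lost without any of D3DMSO replicates 1 and 3, D6DMSO replicates 1 and 3, and the 6 retinoic acid libraries, each left out alone, with limma's adjusted p between 0.0518 and 0.109. Hoxb1 was called without D3DMSO replicate 1 (1.13, adjusted p = 0.0176) and with libraries thinned to the smallest (1.34, adjusted p = 0.0312), and Hoxb8 without D3DMSO replicate 2 (-1.60, adjusted p = 0.0211).

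The narrowing equals the change over time with retinoic acid less that with DMSO. From D3DMSO to D6DMSO, 8 members rose and Hoxb1 fell, where 28.3% of all genes were called higher and 28.1% lower. Hoxb9 rose from 0.967, 6.57 and 4.49 CPM to 89.4, 85.2 and 112 CPM (log2 fold change 4.91 ± 0.45, adjusted p = 1.64e-07 from limma). Hoxb6 rose by 5.0 ± 0.64, Hoxb5 by 4.92 ± 0.42, Hoxb7 by 3.55 ± 0.46, Hoxb3 by 3.01 ± 0.47, Hoxb8 by 2.48 ± 0.44, Hoxb4 by 1.99 ± 0.39 and Hoxb2 by 1.10 ± 0.27. These genes did not overlap between the days, a description for which no share over all genes was computed.

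Hoxb1 fell by 0.83 on the log2 scale (SE 0.29, adjusted p = 0.0233 from limma), but its libraries overlapped, since D3DMSO replicate 1 (20.9 CPM) lay below D6DMSO replicate 3 (24.2 CPM). Its call was lost without D3DMSO replicate 2 (-0.54, adjusted p = 0.141) or 3 (-0.76, adjusted p = 0.0683), or without D6DMSO replicate 1 (-0.75, adjusted p = 0.0773) or 2 (-0.74, adjusted p = 0.0851). Without D3DMSO replicate 1 the rises were 3.78 for Hoxb6, 2.75 for Hoxb7 and 4.10 for Hoxb9; without replicate 2 they were 5.59 for Hoxb5, 5.79 for Hoxb6 and 4.20 for Hoxb7. The median over the members was 3.01, against 0.01 over all genes.

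With retinoic acid the largest rises from day 3 to day 6 were at Hoxb8 and Hoxb9. Of the 9 members 3 rose, Hoxb5, Hoxb8 and Hoxb9, and none fell, where 37.2% of all genes were called higher and 32.0% lower; 3 of 9 is near that background. Hoxb9 rose from 46.5, 57.7 and 57.6 CPM to 292, 314 and 259 CPM, 5.35-fold (log2 fold change 2.42 ± 0.45, adjusted p = 0.000159 from limma). Hoxb8 rose 2.66-fold, from 16.9, 25.4 and 23.3 CPM (1.42 ± 0.44, adjusted p = 0.00836). Hoxb5 rose 2.01-fold (1.04 ± 0.42, adjusted p = 0.0366). At the other end, Hoxb1 was at 0.986-fold and Hoxb2 at 1.07-fold of day 3, neither called, with overlapping libraries.

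Hoxb4 was at 0.719-fold of its day 3 level (log2 fold change -0.48 ± 0.39, adjusted p = 0.291), Hoxb3 at 1.58-fold, Hoxb6 at 1.27-fold and Hoxb7 at 1.96-fold. None of these 4 was called in limma's fit of all 5 groups, although their libraries did not overlap. The count rests on how the spread is estimated. With the D3RA and D6RA libraries fitted alone, 7 members were called, 6 higher and Hoxb4 lower (adjusted p = 9.6e-05 from limma), and with voom weights also 7. Most genes were called in these settings too, 10072 and 10471 of all 14717. Hoxb5's call was lost in 9 of its 15 alternatives, with adjusted p up to 0.125, and Hoxb8 and Hoxb9 were called in all 15. Spearman's rho of this change with position was 0.80 over the 9 genes, and 0.63 for the change in DMSO, both as descriptions. The median was 0.66 over the members and 0.07 over all genes.

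Shares within the cluster do not depend on the scale of a library. Counts of Hoxb1 made up 59.6 ± 7.1% of all Hoxb counts in D3DMSO and 8.41 ± 0.71% in D6DMSO, but 0.779 ± 0.14% in D3RA and 0.463 ± 0.036% in D6RA (n = 3 each). Counts of Hoxb9 made up 5.71 ± 2.3% in D3DMSO and 41.4 ± 1.9% in D6DMSO, and 8.32 ± 0.87% in D3RA and 27.0 ± 1.7% for D6RA. From D3DMSO to D6DMSO the share of Hoxb1 was smaller and that of Hoxb9 larger, without overlap. Hoxb6 held 28.5 ± 1.3% in D3RA and 21.9 ± 0.29% in D6RA, but 0.688 ± 0.6% and 5.3 ± 0.19% in D3DMSO and D6DMSO.

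Hoxb1 to Hoxb4 together held 94.3, 86.4 and 87.5% of the Hoxb counts in the D3DMSO libraries. Their share was 40.4 to 44.0% in D3RA, 36.8 to 40.3% in D6DMSO and 23.1 to 24.3% in D6RA. D3DMSO therefore stood clear of the 3 other groups, and D6RA lay below D3RA and D6DMSO without overlap.

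Ratios between members were also set side by side. The Hoxb9 to Hoxb4 count ratio was 0.313 ± 0.12 in D3DMSO and 0.306 ± 0.044 in D3RA, while it was 2.31 ± 0.28 in D6DMSO and 2.27 ± 0.21 in D6RA. It overlapped between treatments on each day and not between days. The Hoxb6 to Hoxb4 ratio was 0.0358 ± 0.032 in D3DMSO against 1.05 ± 0.081 in D3RA, with 0.294 ± 0.016 in D6DMSO against 1.85 ± 0.033 in D6RA, and did not overlap between treatments or between days. The Hoxb2 to Hoxb1 ratio was 7.77 ± 1.4 in D3RA and 8.41 ± 1 in D6RA, which overlapped, and 0.135 ± 0.034 in D3DMSO and 0.51 ± 0.035 in D6DMSO, which did not. With 3 libraries against 3, an exact two-sided permutation test cannot go below 0.1, so these ratios are given without a test.

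**Figure D3:**
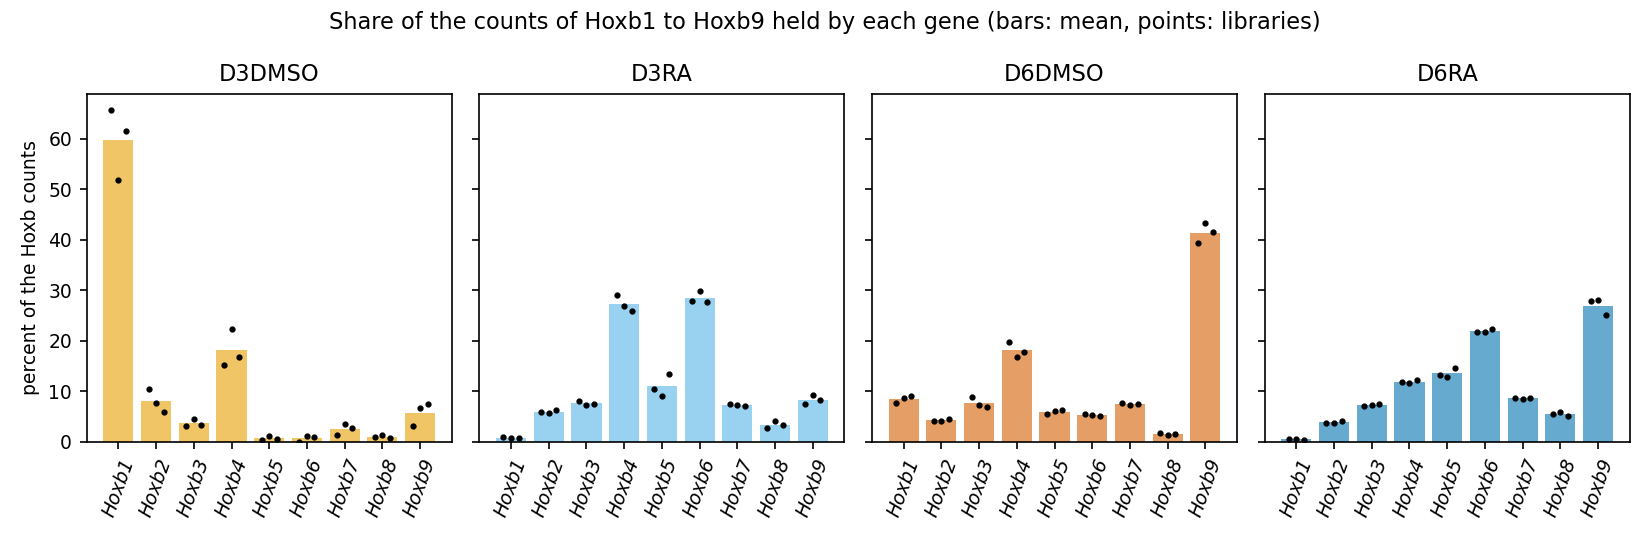
Share of all Hoxb1 to Hoxb9 counts held by each gene (vertical axis, percent; horizontal axis, genes in cluster order) in the 4 differentiated groups; bars are means and points the 3 libraries. Gene length is not corrected, so a gene is compared between panels: Hoxb1 goes from 59.6% in D3DMSO to 0.779% in D3RA, and Hoxb9 from 5.71% in D3DMSO to 41.4% in D6DMSO.

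Scaled to each gene's own highest group, the levels in D3DMSO had a Spearman rho with position of -0.72 over the 9 genes (-0.72 to -0.70 in single libraries). They went from 100% for Hoxb1 and 11.7% for Hoxb2 to 0.34% for Hoxb5 and 0.234% for Hoxb6, and were higher again at Hoxb7 (2.03%), Hoxb8 (1.13%) and Hoxb9 (1.39%). The value was -0.25 in D3RA and -0.43 in D6DMSO. By this scaling the mean of Hoxb1 in D3DMSO and that of Hoxb4 in D3RA stand at 100%, since these are their highest groups. No value without these genes was computed. D6RA was itself the highest group for 7 of 9 genes, so no such value is given for it. Across the 15 libraries, log2 values of Hoxb2 to Hoxb9 correlated at Pearson's r of 0.90 to 0.99 in their 28 pairs, and those of Hoxb1 with the other 8 at 0.45 to 0.77. These are descriptions: the libraries fall into the 5 groups and D0 sets a shared low end.

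Antisense and overlapping transcripts limit how the reads of some members can be assigned. In RefSeq's annotation Hoxb3 overlaps Hoxb4 and Hoxb3os, Hoxb2 overlaps Hoxb3os, and Hoxb5 and Hoxb6 overlap Hoxb5os. The kit keeps strand, but the sources used here do not say whether counting used it, so these splits are uncertain. Hoxb3os was at 21.4 ± 6.9 CPM in D3DMSO, 59.1 ± 8.1 in D3RA, 27.6 ± 1.7 in D6DMSO and 73.0 ± 4.5 in D6RA. Hoxb5os was at 2.29 ± 1.8, 94.0 ± 12, 28.3 ± 5.1 and 58.2 ± 4 CPM. Both were called higher in D3RA than in D3DMSO, by 1.5 ± 0.27 and 5.65 ± 0.41 on the log2 scale. Hoxb1, Hoxb7, Hoxb8 and Hoxb9 overlap no annotated gene.

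The genes on either side of Hoxb1 to Hoxb9 were also called. Of the 8 nearest coding genes on each side of Hoxb1 to Hoxb9 in RefSeq's order, 11 were in the table. Hoxb13, next to Hoxb9, was among those absent. Of the 11, 10 had log2 fold changes of less than 2 in size in both D3 groups against D0. In D3DMSO against D0, 3 of the 11 were called higher and 6 lower, where 28.2% of all genes were called higher and 27.8% lower. In D3RA against D0 the counts were 4 and 7, where the shares of all genes were 35.0% and 33.9%. The exception in size was Skap1, a signalling adaptor of T cells and the next gene beyond Hoxb1. Its fitted log2 fold changes against D0 were 3.21 ± 0.63 in D3DMSO, above those of Hoxb5 (2.96), Hoxb6 (2.72) and Hoxb8 (2.92), and 5.89 ± 0.63 in D3RA. It was at 1 count in the D0 libraries, 0.728 ± 0.34 CPM in D3DMSO and 4.8 ± 0.66 CPM in D3RA, and it was called higher in D3RA than in D3DMSO (2.68 ± 0.63, adjusted p = 0.0015 from limma). Igf2bp1, an RNA-binding protein gene on the Hoxb9 side, had the lowest value, -1.49 ± 0.17 in D3RA against D0.

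**Figure D4:**
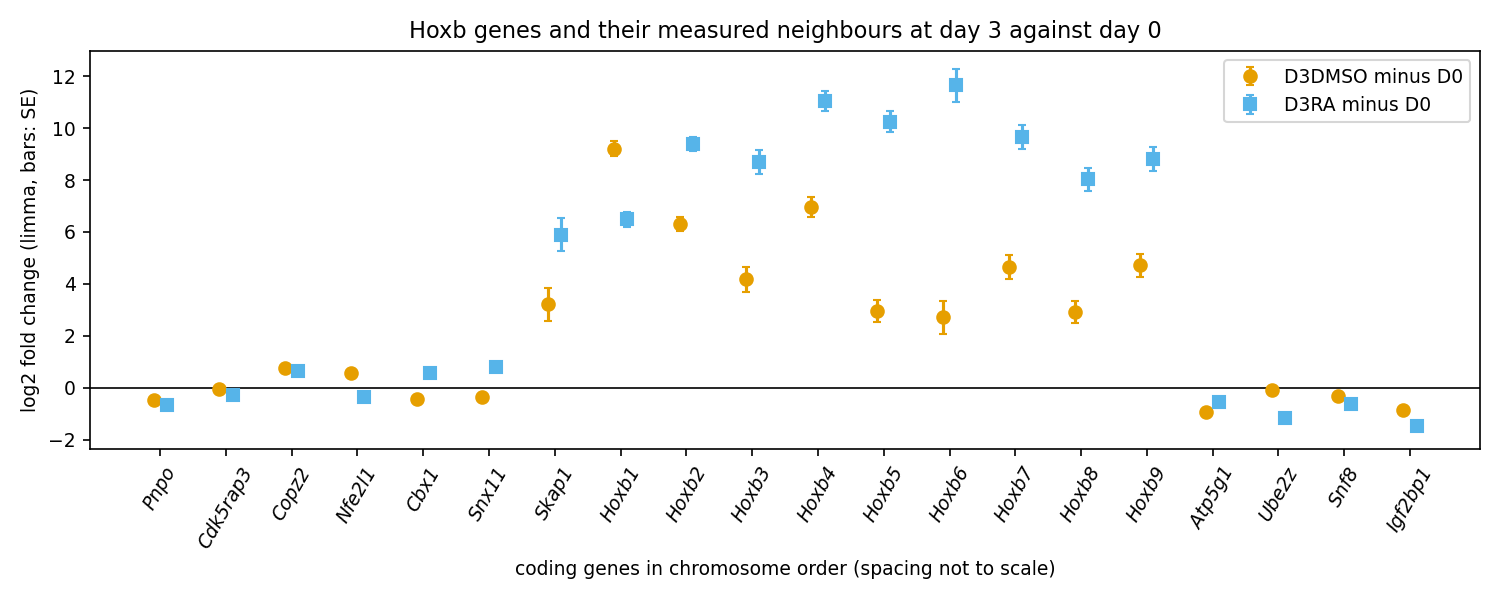
Log2 fold change from limma (vertical axis, bars are SE) at day 3 against D0 for Hoxb1 to Hoxb9 and the 11 measured neighbours, in chromosome order (horizontal axis, spacing not to scale). Values of genes at 0 counts in D0 are fitted and depend on the count of 0.5 added to the data. The Hoxb genes and Skap1 lie above 2 and the other neighbours between -1.49 and 0.80.

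Same-numbered genes of other clusters were set beside Hoxb1 and Hoxb9, the first and last of the members, in D3DMSO and D3RA. Hoxd1, a relative of Hoxb1, was at 7.45 ± 2 and 7.27 ± 2 CPM (log2 fold change -0.02 ± 0.26, adjusted p = 0.956 from limma, not called). Hoxd9, the relative of Hoxb9, fell from 13.5 ± 8 to 0.891 ± 0.42 CPM (-3.70 ± 0.71, adjusted p = 0.000254), and Hoxa9 was under 1 CPM in both. These 3 were chosen as relatives of Hoxb1 and Hoxb9 after their values were seen. Over the 15 other Hox genes in the table, 12 rose, 1 fell and 2 were not called in D3RA against D3DMSO, with a median of 2.97, where 30.7% of all genes were called higher and 31.4% lower.

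Genes that act on Hox clusters were counted from lists. Of 13 measured genes of retinoid reception and turnover, 7 were higher and 6 lower in D3RA than in D3DMSO (median 1.24), beside 30.7% and 31.4% of all genes. Cyp26b1, which degrades retinoic acid, was at 168 ± 32 CPM in D3RA and 1 count in the D3DMSO libraries. Rarb, a retinoic acid receptor and a direct retinoid target, rose from 1.59 ± 0.23 to 263 ± 17 CPM (7.31 ± 0.14, adjusted p = 1.21e-15 from limma). Aldh1a2, which makes retinoic acid in mesoderm, fell from 214 ± 29 to 0.764 ± 0.38 CPM (-7.91 ± 0.26, adjusted p = 3.47e-13). Rxrg, an RXR partner, was at 5.24 ± 1.7 CPM in D3DMSO and 1 count in D3RA.

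At day 6 these genes stood at 5 higher and 6 lower in D6RA (median -0.25; all genes, 32.6% and 33.1%), with Cyp26b1 (3.06 ± 0.39) and Dhrs3 (2.0 ± 0.13) highest and Cyp26a1 (-7.44 ± 0.25) and Aldh1a2 (-4.22 ± 0.26) lowest, all called. Dhrs3 reduces retinal and so lowers retinoid supply, and Cyp26a1 is another retinoic acid hydroxylase.

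Of 7 measured caudal and segmental regulators, 6 were higher in D3DMSO than in D0 and 1 was not called, beside 28.2% of all genes higher and 27.8% lower. Cdx2, the caudal factor, was at 2 counts in D0, 95.6 ± 20 CPM in D3DMSO and 10.4 ± 0.47 CPM in D6DMSO. It was at 1 count in D3RA and 2 counts in D6RA. Wnt3a, a tail-bud signal, went from 0 counts to 42.7 ± 12 CPM. D3DMSO was also the group in which Hoxb2 to Hoxb9 were lowest among the differentiated groups, and a link between these levels was not tested. In D3RA against D3DMSO, 2 of the 7 were higher and 4 lower (median -2.76; all genes, 30.7% and 31.4%). Gdf11, a trunk-to-tail signal, rose by 2.41 ± 0.15, while Cdx2 and Fgf8, a streak and tail-bud signal at 130 ± 11 CPM in D3DMSO and 3 counts in D3RA, fell.

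Hox cofactors rose with retinoic acid at day 3: 8 of 9 were called higher in D3RA than in D3DMSO and none lower (median 0.75), with all genes at 30.7% and 31.4%. Meis1 rose from 4.2 ± 0.67 to 221 ± 11 CPM (5.70 ± 0.16, adjusted p = 5.52e-14 from limma) and Pknox1 by 1.34 ± 0.10. At day 6, 5 were higher and 1 lower in D6RA (median 0.94; all genes, 32.6% and 33.1%), led by Pbx3 (1.72 ± 0.08) and Meis3 (1.63 ± 0.12), with Pknox2 lower (-0.50 ± 0.14). Of 18 chromatin regulators of Hox clusters, 5 were higher and 7 lower in D3RA than in D3DMSO (median -0.02), which is near the 30.7% and 31.4% of all genes. Bmi1 (1.61 ± 0.10) and Ring1 (0.83 ± 0.15), both of Polycomb complex PRC1, were highest, and Cbx7 (-3.43 ± 0.19), another PRC1 subunit, and Ezh1 (-1.29 ± 0.11), an H3K27 methyltransferase of PRC2, were lowest.

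Markers of cell types also differed between the groups. The summed level of 8 hindbrain and spinal cord progenitor markers was 902 to 1011 CPM in D3RA and 861 to 880 CPM in D6RA, against 212 to 287 CPM in D3DMSO and 224 to 240 CPM in D6DMSO; it was 189 to 218 CPM in D0. Nes alone gave 484 CPM in D3RA and 469 CPM in D6RA. Not every marker was higher with retinoic acid: Msx1 was not called at day 3 (0.20 ± 0.29) and was lower in D6RA than in D6DMSO (-3.24 ± 0.29), and Dbx1 was not called at day 6 (-0.74 ± 0.50). Dbx1 was at 0 counts in D3DMSO and Pax7 in D0. The 9 neuron markers summed to 890 to 1131 CPM in D3RA, 3324 to 3552 CPM in D6RA, 137 to 182 CPM in D3DMSO and 43.4 to 51.1 CPM in D6DMSO. Their sum in D0 was 314 to 350 CPM, with Nhlh2 at 0 counts in D0 and D3DMSO. Map2, Dcx and Tubb3 gave 1216, 831 and 677 CPM of the D6RA sum. Among the neuron markers, Isl1 was called lower with retinoic acid than with DMSO at both days (-1.17 ± 0.36 and -1.51 ± 0.36). Stmn2 was not called at day 3 (-0.23 ± 0.11). The 7 streak and mesoderm markers summed to 1124 to 1287 CPM in D3DMSO, to 287 to 344 CPM in D6DMSO, 94.5 to 112 CPM in D3RA and 172 to 188 CPM in D6RA, and to 33.3 to 35.9 CPM in D0. T, the brachyury gene of the streak, gave 874 CPM of the D3DMSO sum and Lhx1 168 CPM of the D6RA sum, while Foxc1, Meox1 and Kdr had their highest means in D6DMSO.

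Markers of other lineages were present too. The 6 cardiac muscle markers summed to 54.4 to 87.5 CPM in D6DMSO and to at most 23.6 CPM in the other groups, with Tnnt2 at 0 counts in D3RA. The 6 endothelial markers were highest in D3RA (120 to 165 CPM), and Emcn was at 0 counts in D3DMSO. The 8 pluripotent cell markers summed to 1856 to 2132 CPM in D0, the group labelled undifferentiated, and to 567 to 1141 CPM in D3DMSO and at most 199 CPM in the other groups, with Dppa4 at 0 counts in D6RA. In the retinoic acid groups nearly all of this sum was Sox2, a gene of neural progenitors too, at 147 CPM in D3RA and 187 CPM in D6RA. Sox2 was called higher with retinoic acid than with DMSO at both days (1.13 ± 0.16 and 1.96 ± 0.16). The part of cell type composition in the Hoxb values was not tested.

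The genes whose log2 values were most like a member's over the 15 libraries, among 12852 genes compared and outside the Hox clusters, were also listed. For Hoxb1 they were Ints6l (Pearson's r 0.986), Tmem87b, Tmem30a, Ext1 and Nkd1, the last at 28.8 CPM in D3DMSO, 12.4 in D3RA and 3.63 in D0. For Hoxb4 they were Jak2 (0.992), Zfyve9, Hotairm1, Usp3 and Lamp2. For Hoxb9 they were Clock (0.992), Zfp148, Vopp1, Hook3 and Zfp9. These likenesses are descriptions over libraries that fall into the 5 groups, and a gene can follow a member's pattern over a much smaller range.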

How the data were processed

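RNA was measured in 15 libraries of P19 cells, 3 per group, from a stranded total RNA kit with ribosomal RNA removed, per the labels. The submitters' processing notes list STAR 2.6.0c, Trimmomatic 0.32, featureCounts, limma and edgeR and the genome build mm9, without saying which made the table. The authors deposited log2 values for 14717 genes. Undoing the log2, the constant per library and an added count of 0.5 gave whole numbers within 0.05 for 100% of values; these counts, on the deposited scale, gave CPM. Symbols were matched for 14228 genes. Tests used limma 3.58.1 in R 4.3.3 with a variance trend on the deposited log2 values, 1 coefficient per group and 10 residual degrees of freedom. Tables and plots used Python 3.11.15 with numpy 2.4.6, pandas 2.3.3 and matplotlib 3.10.9. The scripts were tested on simulated data.

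The members and gene lists were chosen with earlier results of these data known. All members are named. From each list at most the 2 highest and 2 lowest called genes at 1 CPM or more are named, from the comparisons described; 2 genes of the lists are not reported here. For Hoxb1, Hoxb4 and Hoxb9 the 5 most alike genes are named. Alternatives were leaving out each library, a replicate block, quantile normalization, a 5 CPM minimum in 3 libraries (leaving 12552 genes), limma without a trend, the compared groups alone, voom weights, log2 of CPM plus 1 and thinning to 2189364 counts. Leaving out D3RA replicates 2 and 3 together was added after seeing the data.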

Additional observations from a re-analysis of the deposited data

Results flagged for a closer look

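The difference between retinoic acid and DMSO changed from day 3 to day 6 for 7 Hoxb genes, by the test of the treatment difference at D6 less that at D3 (limma, Benjamini-Hochberg adjusted over all genes). The change was -1.0 for Hoxb2 on the log2 scale, -2.35 for Hoxb3, -2.47 for Hoxb4, -3.88 for Hoxb5, -4.66 for Hoxb6, -2.58 for Hoxb7 and -2.49 for Hoxb9. The same test called 23.1% of all genes lower.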

How the results depend on the processing

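Of 972 values of a member under an alternative, 928 kept their direction and their side of the threshold, 25 lost a call, 14 gained one and 5 changed sign. The sign changes were all in D6RA against D3RA, in genes not called: Hoxb1 was 0.36 with thinning, and -0.16 to 0.04 with a library left out, with 0.04 without D3RA replicate 1 and 0.03 without D6RA replicate 3, and Hoxb2 was -0.04 with quantile normalization and -0.04 with thinning. In that comparison 7 members were called with the compared groups only, 7 with voom weights and 5 with log2 of CPM plus 1, against 3, and 2 to 3 with a library left out. Of all 14717 genes, these settings called 10072, 10471 and 10242, against 10193, and 9378 to 10042 with a library left out. With a library left out, 8 to 9 members were called in D6DMSO against D3DMSO, 6 to 8 in the test of the difference between days, and 9 in the 4 other comparisons. Of all genes, 7233 to 8078 were called in the first of these, 6372 to 7261 in the second and 7425 to 10004 in the 4 others. Thinning to the smallest library left 4759 genes called in the test between days, against 7139; it removes most counts of the D6 libraries. The rho of level with position in D6DMSO was -0.43 to -0.38 with a library left out. Replicate numbers were not taken as pairs, since not every pair passed 0.1: deviations of same-numbered libraries correlated at -0.31 to 0.58, above 0.1 in 15 of 30 pairs, with a median of 0.09 against -0.04 for other numbers, and 10 of 15 libraries were closest to their own number, a hint from the data and not from the design. With a replicate block all counts stayed within 1.5 times, for example 7323 genes and 7 members in the test between days. Depth limits Hoxb5, Hoxb6 and Hoxb8 in D3DMSO most, at 8, 9 and 11 counts.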
